A study of Arabidopsis thaliana with 6 samples.

Results

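The genes described here encode β-glucosidases and related glycosidases of Arabidopsis thaliana, measured in shoots on Affymetrix ATH1 arrays. Members were the probe sets that the platform annotation ties to a single gene whose symbol is PYK10 or starts with BGLU, BGAL, TGG or BXL and a number. The rule found 22 genes, each with its own probe set, among 13286 loci with a probe set of 1 gene. There were 21 β-glucosidase (BGLU) genes, PYK10 included, and 1 β-galactosidase gene, BGAL16. No thioglucosidase (TGG) or β-xylosidase (BXL) symbol was found, although BGLU36 is also known as the thioglucosidase gene TGG6. The reference table has 47 loci with a BGLU symbol or synonym. Of those outside the rule ATA27, a synonym of which is BGLU20, was measured as well, and the others were not analysed here. The probe set that lists both BGLU21 and BGLU22, the closest relatives of PYK10, names several genes and was left out by the rule.

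The 6 arrays came from seedlings 3 weeks old. Of these, 3 carried EBE-XVE line 14 in the Col-0 background, in which estradiol switches on EBE (an AP2/ERF-type regulator of transcription), and 3 carried the Col-0 wild type (WT). Both genotypes were shaken in liquid MS medium for 16 h and then given 2 µM β-estradiol for 45 min, so no group went without estradiol. The transgene was present as 1 line, and a difference of that line from Col-0 cannot be told apart from an effect of induced EBE. The titles number the replicates 1, 2 and 3 in each genotype and call them biological. Values are log2 signals, the log base being read from their range, and differences are in log2 units.

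β-Glucosidases of this family split a glucose from small molecules that plants store as inert glucosides. Products released in this way include defence compounds, coumarins, hormones and lignin precursors. PYK10 is the main β-glucosidase of the endoplasmic reticulum (ER) bodies of Arabidopsis roots, spindle-shaped stores from which the enzyme meets its substrates when the cell breaks. Myrosinases, the TGG enzymes, are relatives that act on glucosinolates. β-Galactosidases act mainly on cell wall polymers.

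The arrays of replicate 1 stood apart in both genotypes. Their median signal was 5.38 in EBE-XVE and 5.47 in WT, against 4.44 to 4.50 on the other 4 arrays, while the lower quartile ranged from 2.50 to 2.67 over all 6. EBE read 8.55, 7.21 and 3.19 in EBE-XVE replicates 1, 2 and 3 and 4.26, 2.98 and 3.02 in WT, so the array labelled EBE-XVE replicate 3 showed no raised EBE. Of 20 listed shoot markers 8 were measured, that is, matched by name to a probe set of 1 gene. Their brightness was mixed. The stomatal genes MUTE and SPCH were dim, at 2.12 to 2.29 and 2.96 to 4.49. The photosynthesis genes RCA, SBPASE, LHCB4.1 and PSAN were bright on every array, and FAMA and STOMAGEN lay between. RCA, which encodes Rubisco activase, ranged from 13.34 to 14.20, and LHCB4.1, for an antenna protein of photosystem II, from 13.10 to 13.72. Of 22 root tissue markers 3 were measured, and they were dim throughout: EXPA7 and EXPA18, expansins of root hair cells, read 1.75 to 2.13 and 1.85 to 1.90, and AGL21, a MADS-box gene, 2.36 to 2.65. The only measured marker of flowers, the tapetum regulator AMS, read 2.39 to 2.53.

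PYK10 was bright in these shoots and highest in replicate 1 of both genotypes. It read 12.14 in EBE-XVE and 12.26 in WT in replicate 1. In replicate 2 the values were 8.75 and 8.58, and in replicate 3 they were 9.21 and 8.81. Both replicate 1 arrays thus lay about 3 log2 units or more above the other 4, whereas the genotypes overlapped. Averaged over both genotypes, PYK10 was 3.53 higher in replicate 1 than in replicate 2 (SE 0.19, n = 2 arrays each), or 11.6-fold, with an adjusted p of 4.6e-04 in limma. Against replicate 3 it was 3.19 higher (SE 0.19), or 9.11-fold (adjusted p = 5.4e-04). Replicates 2 and 3 differed by -0.35, which did not pass (adjusted p = 1.00). In the whole array, 0.448% of probe sets had a larger difference, in either direction, between replicates 1 and 2, and 1.28% between replicates 1 and 3. RNA came from whole shoots, so more cells of a type and more RNA per cell cannot be told apart.

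PYK10 was the only gene classed as root-type that was matched by name to a probe set of 1 gene. BGLU15 was the only such gene classed as shoot-type. BGLU21 and BGLU22, also on the root-type list, share the probe set that the rule left out. The product of BGLU15 hydrolyses flavonol glucosides. BGLU15 read 6.28 in EBE-XVE and 5.43 in WT in replicate 1, 3.49 and 3.32 in replicate 2, and 3.09 and 3.33 in replicate 3. It moved in the same direction as PYK10, with both replicate 1 arrays above the other 4. The difference was 2.45 against replicate 2 (SE 0.29, 5.48-fold, adjusted p = 0.0032) and 2.65 against replicate 3 (SE 0.29, 6.27-fold, adjusted p = 0.00258). With 1 gene in each class, root-type and shoot-type members could not be compared as groups. The root markers did not rise with PYK10: EXPA7 fell by 0.37 against replicate 2 and by 0.37 against replicate 3 (adjusted p = 6.2e-04 and 6.4e-04), AGL21 fell by 0.23 and 0.21 (adjusted p = 0.021 and 0.0279), and EXPA18 differed by -0.04 in both. All 3 are too dim to give the amount of root tissue, whose part in the PYK10 values was not tested.

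**Figure D1:**
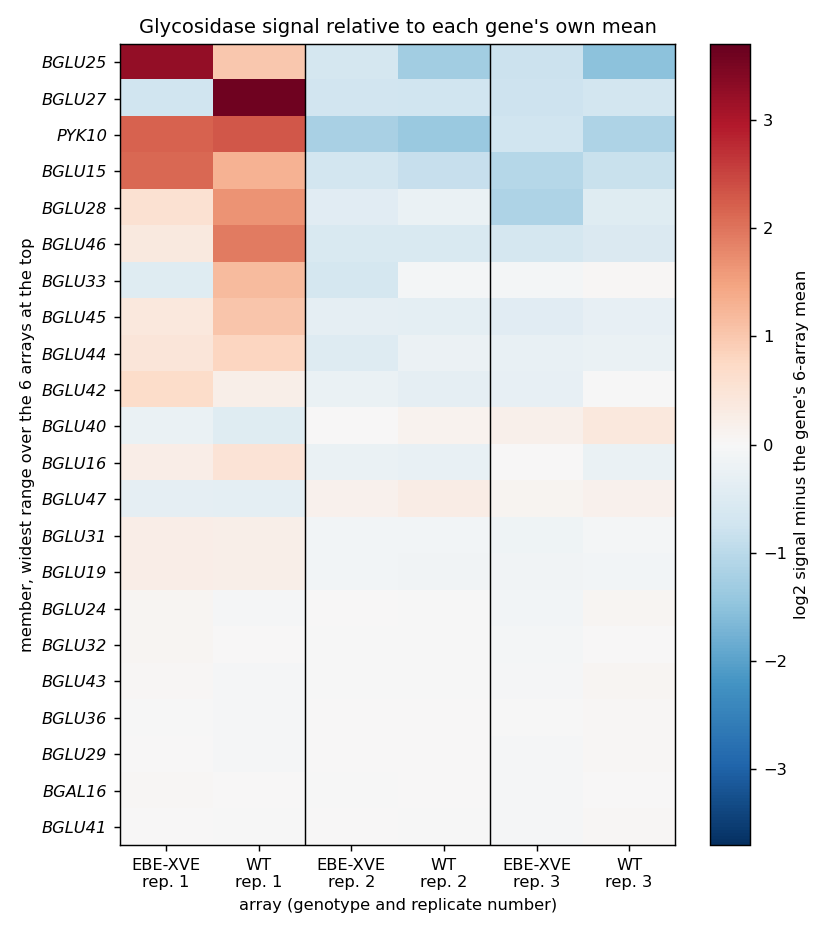
Log2 signal of the 22 glycosidase genes minus each gene's mean over the 6 arrays, with arrays ordered by replicate number on the horizontal axis and genes by their range on the vertical axis. PYK10, BGLU25 and BGLU15 are high on both replicate 1 arrays, BGLU27 is high on the WT replicate 1 array, and the 7 genes at the bottom vary by at most 0.2.

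Of the 22 members, 11 were called higher and 1 lower in replicate 1 than in replicate 2, at an adjusted p under 0.05. Over all probe sets 37.9% were called higher and 9.54% lower, so the members' 50.0% and 4.55% lay near the background. Against replicate 3, 9 members were called higher and 2 lower, or 40.9% and 9.09%, beside 37.0% and 9.98% of all probe sets. Between replicates 2 and 3 limma called 0 members and 0 probe sets in either direction, while 0 members and 281 of all probe sets had p under 0.05 without adjustment. The members' median difference was 0.49 against replicate 2 and 0.36 against replicate 3, beside 0.30 and 0.26 over all probe sets. The 9 members called higher against both other replicates were PYK10, BGLU15, BGLU19, BGLU25, BGLU28, BGLU31, BGLU44, BGLU45 and BGLU46. Without WT replicate 2, 7 members were called higher and 0 lower than replicate 2, and the probe sets called higher fell from 8626 to 5317 of 22746. Without EBE-XVE replicate 3, 5 members were called higher and 1 lower than replicate 3, and the probe sets called higher fell from 8417 to 5790. Without WT replicate 1, 0 were called lower than replicate 3.

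These counts depended on how the arrays were scaled. After quantile normalization 17.0% of probe sets were called higher and 29.4% lower against replicate 2, with 7 members each way, and 18.4% and 31.4% against replicate 3, again with 7 members each way. Centring each array on its median gave 8.02% higher and 55.4% lower against replicate 2, with 4 members higher and 11 lower, and 9.25% and 57.2% against replicate 3, with 5 and 11. PYK10, BGLU15 and BGLU25 were called higher under all 3 scalings in both comparisons. For PYK10 the difference from replicate 2 was 3.03 after quantile normalization and 2.57 after centring, and for BGLU15 it was 1.62 and 1.49. BGLU47 was called lower under all 3 in both comparisons. Centring also lowered dim members that varied little: BGLU41, at 2.60 to 2.68 on every array, differed from replicate 2 by 0.001 as deposited and by -0.96 when centred.

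**Figure D2:**
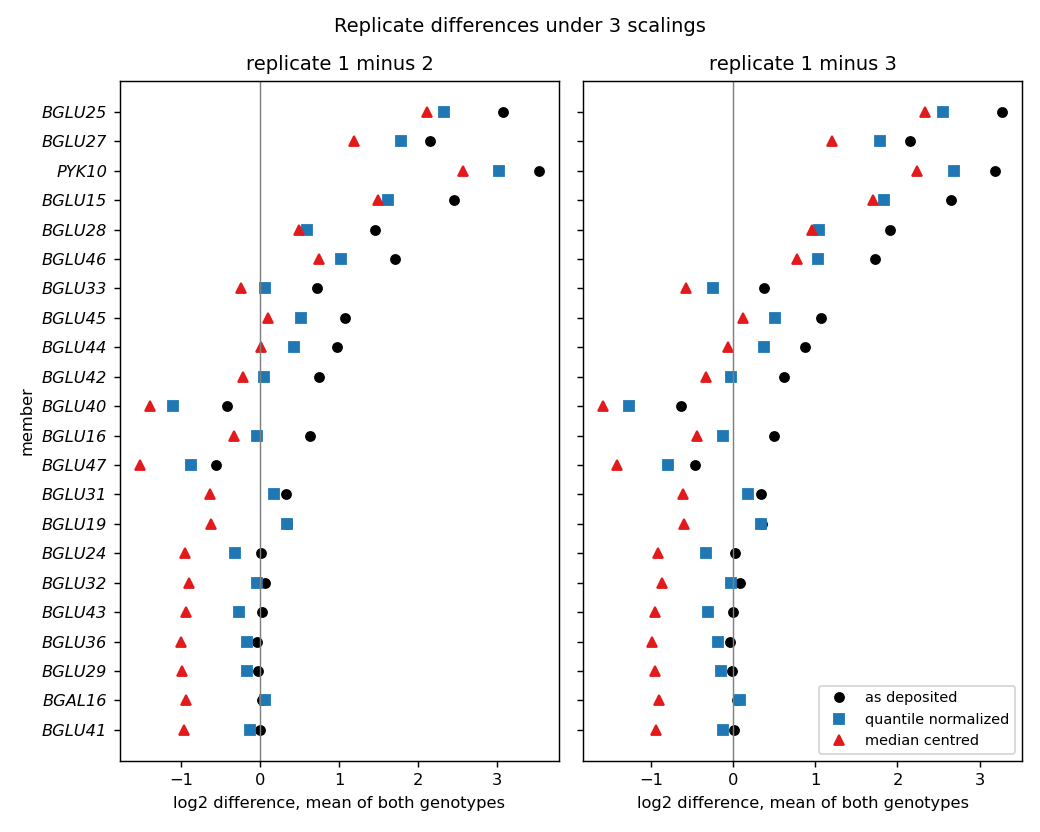
Difference of replicate 1 from replicate 2 (left) and from replicate 3 (right) for each member, in log2 units averaged over both genotypes, for values as deposited (circles), quantile normalized (squares) and median centred (triangles). PYK10, BGLU25 and BGLU15 lie above 0 for all 3, whereas the dim members at the bottom lie near 0 as deposited and at about -1 when centred.

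BGLU25 rose in replicate 1 by about as much as PYK10 and had the widest range of all 22 members, 4.76. Its values were 9.66 in EBE-XVE and 7.41 in WT in replicate 1, 5.77 and 5.15 in replicate 2, and 5.62 and 4.89 in replicate 3. Both replicate 1 arrays were above the other 4, and EBE-XVE was above WT at every replicate number. The difference between replicates was 3.08 against replicate 2 (SE 0.44, 8.44-fold, adjusted p = 0.00496) and 3.28 against replicate 3 (SE 0.44, 9.71-fold, adjusted p = 0.00405). Without the EBE-XVE replicate 1 array the differences were 2.29 and 2.50.

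BGLU28, whose enzyme breaks down glucosinolates when sulfur is short, lies next to BGLU15 in the genome. Its signal was 6.05 in EBE-XVE and 7.16 in WT in replicate 1, 5.05 and 5.24 in replicate 2, and 4.35 and 5.04 in replicate 3. The replicate 1 values were the highest in each genotype, by 1.46 against replicate 2 (SE 0.29, adjusted p = 0.0123) and by 1.90 against replicate 3 (SE 0.29, adjusted p = 0.00564). After quantile normalization the differences were 0.59 and 1.04 and neither was called, and after centring they were 0.49, not called, and 0.96, called. BGLU29, the next gene along, stayed between 2.64 and 2.72 on all arrays. Adjacent genes thus differed: BGLU15 and BGLU28 rose in replicate 1 and BGLU29 was flat and dim.

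The genes for monolignol glucosides, transport or storage forms of lignin precursors, were dim in replicates 2 and 3 and split in replicate 1. BGLU45 and BGLU46, neighbouring genes whose enzymes release the monolignols, were called higher, and BGLU47, of the same subgroup, lower. BGLU46 read 3.996 in EBE-XVE and 5.57 in WT in replicate 1 and 3.00 to 3.12 on the other 4 arrays. BGLU45 read 3.68 and 4.32 in replicate 1 and 2.87 to 2.99 on the others. In both genes the WT replicate 1 array was the highest of all and the EBE-XVE replicate 1 array the next. BGLU46 differed by 1.70 from replicate 2 (SE 0.40, adjusted p = 0.0211) and by 1.72 from replicate 3 (SE 0.40, adjusted p = 0.0202). Without the WT replicate 1 array these differences were 0.94 and 0.96. With quantile normalization the BGLU46 differences were 1.02 and 1.03 and lost their calls, and the calls were also lost without a mean-variance trend (adjusted p = 0.0798 and 0.0772). BGLU45 differed by 1.07 from either replicate (adjusted p = 0.00804 and 0.00786), and its calls were lost with centring, at 0.10 and 0.12. BGLU47 read 2.83 and 2.80 in replicate 1 and 3.26 to 3.44 elsewhere, and fell by 0.56 and 0.47 (adjusted p = 0.00808 and 0.013).

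BGLU27 was raised on a single array. It read 6.96 in WT replicate 1 and 2.59 to 2.69 on the other 5, so neither the genotype nor the replicate number went with its level. Its difference between replicates 1 and 2, 2.15 (SE 1.08), did not pass (adjusted p = 0.156), and without WT replicate 1 it was 0.005. BGLU16, the next gene, was bright on every array, at 8.12 and 8.38 in replicate 1 and 7.61 to 7.88 on the others. It was called higher than replicate 2 by 0.64 (adjusted p = 0.0459), a direction that turned to -0.04 with quantile normalization and -0.33 with centring. Against replicate 3 it differed by 0.50 and was not called (adjusted p = 0.0895).

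**Figure D3:**
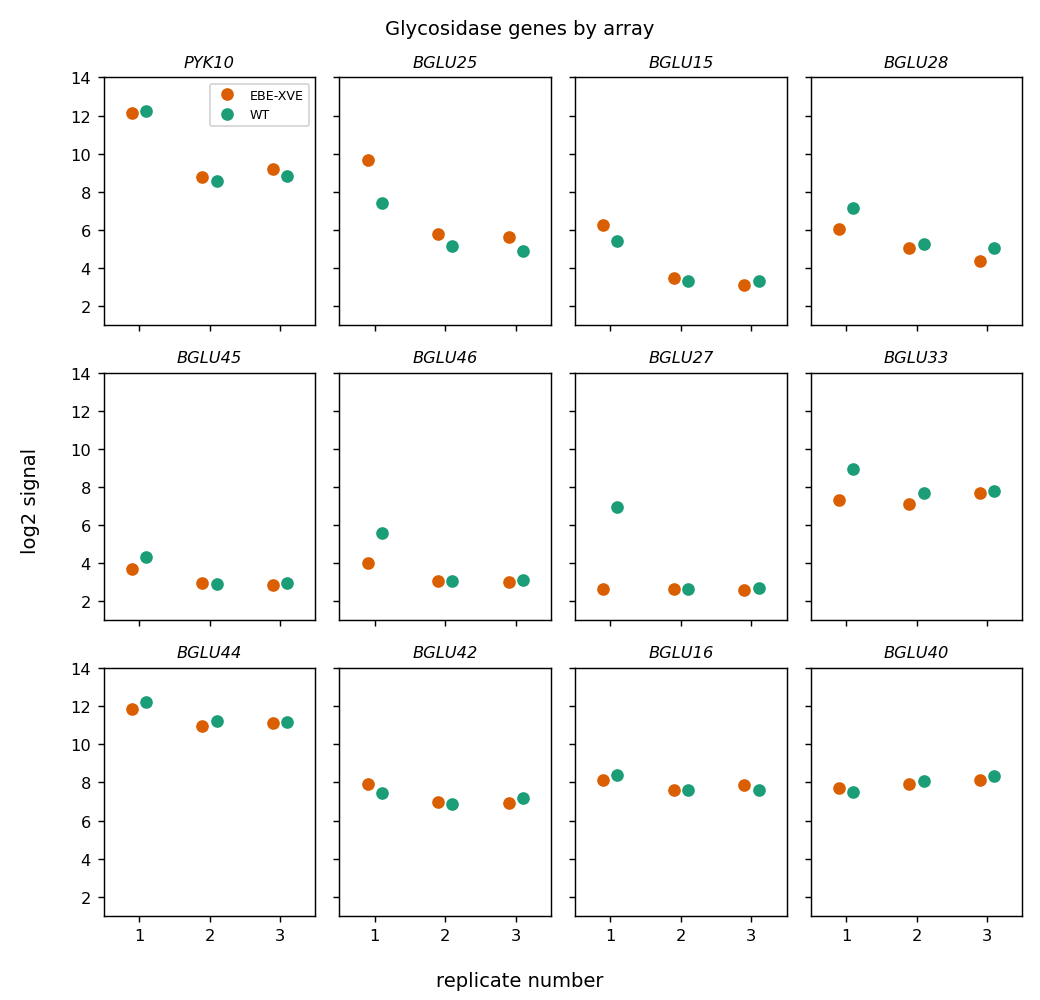
Log2 signal (vertical axis) of 12 members by replicate number (horizontal axis), with 1 point for each array, EBE-XVE in orange and WT in green. PYK10, BGLU25 and BGLU15 are highest in replicate 1 of both genotypes, whereas BGLU27 reads 6.96 on the WT replicate 1 array and at most 2.69 on the others.

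Bright members with smaller differences between arrays were BGLU44, BGLU42, BGLU33 and BGLU40. BGLU44, whose enzyme acts on β-mannosides, read 11.87 and 12.22 in replicate 1 and 10.94 to 11.21 elsewhere. It was called higher by 0.97 against replicate 2 and by 0.88 against replicate 3 (adjusted p = 0.00819 and 0.0108), and with centring these differences were 0.005 and -0.07, neither called. Its neighbour BGLU43 stayed between 2.96 and 3.08. BGLU42, which in roots takes part in coumarin release and induced resistance, read 7.90 and 7.44 in replicate 1 and 6.89 to 7.19 on the others. It was called higher than replicate 2 by 0.74 (adjusted p = 0.0486) and was not called against replicate 3 (0.62, adjusted p = 0.082); with centring the differences were -0.22 and -0.33, and with quantile normalization 0.05 and -0.03. BGLU33, also known as the abscisic acid glucose ester hydrolase BG2, read 8.95 in WT replicate 1 and 7.12 to 7.82 on the other 5 arrays, and was not called between any replicates. BGLU40 ran the other way, at 7.69 and 7.49 in replicate 1, 7.95 and 8.09 in replicate 2, and 8.13 and 8.33 in replicate 3. It was called lower than replicate 3, by -0.64 (adjusted p = 0.0384), a direction kept and called under both other scalings, whereas the call was lost without any of 5 arrays, for example at -0.46 without WT replicate 1.

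A group of 7 dim members hardly varied. The genes BGLU24, BGLU29, BGLU32, BGLU36, BGLU41, BGLU43 and BGAL16 lay below the array median on all 6 arrays with ranges of 0.08 to 0.17. BGLU19 and BGLU31 were also dim but varied more. BGLU19, classed here as reproductive-type, read 2.34 and 2.32 in replicate 1 and 1.97 to 2.01 elsewhere, and BGLU31 read 2.86 and 2.83 against 2.47 to 2.54. Both were called higher in replicate 1, by 0.34 (adjusted p = 0.00124) and 0.32 (adjusted p = 0.00812) against replicate 2, and both turned to -0.63 and -0.64 with centring. ATA27, known as BGLU20 and not a member by its symbol, read 2.39, 2.45 and 2.41 in EBE-XVE replicates 1, 2 and 3 and 3.43, 3.00 and 2.58 in WT. All 3 EBE-XVE values of this dim gene, which was named after its values were seen, lay below the WT values. Such a separation of the genotypes, in either direction, was present in 1.38% of all probe sets. On average ATA27 was lower in EBE-XVE by -0.58 (SE 0.21). Limma did not call it (adjusted p = 1.00), and its unadjusted p was 0.0317, or 0.0136 with the replicate block.

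Genes whose products work with PYK10 were set beside it. Of 18 listed genes for ER bodies and the PYK10 complex 6 were measured, and 3 were called higher and 0 lower in replicate 1 against each of the other replicates, or 50.0% of the list, beside 37.9% of all probe sets called higher against replicate 2 and 37.0% against replicate 3. The median difference of the list was 1.58 against replicate 2 and 1.23 against replicate 3. NAI2, which ER bodies need in order to form, read 10.16 in EBE-XVE and 9.93 in WT in replicate 1, 7.32 and 7.34 in replicate 2, and 7.71 and 7.32 in replicate 3. It was 2.71 higher than in replicate 2 (SE 0.18, 6.56-fold, adjusted p = 7.2e-04) and 2.53 higher than in replicate 3 (SE 0.18, adjusted p = 8.6e-04). The gene for the transcription factor NAI1, on which PYK10 expression depends in seedlings, did not rise: it read 3.88 and 3.99 in replicate 1 and 3.67 to 4.29 elsewhere. It differed by -0.31 and -0.03, neither called, and was called lower after quantile normalization (-1.04 and -0.76) and centring (-1.28 and -0.98).

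The jacalin-related lectins of the complex divided. JAL33 and JAL34 belong to the type that enlarges PYK10 aggregates in root extracts, and JAL22 and JAL23 to the type that limits them. JAL33 read 8.63 in EBE-XVE and 8.12 in WT in replicate 1, 4.56 and 4.65 in replicate 2, and 5.48 and 4.76 in replicate 3. It was 3.77 higher than in replicate 2 (SE 0.27, 13.6-fold, adjusted p = 8.7e-04) and 3.26 higher than in replicate 3 (adjusted p = 0.00124). JAL34 rose by 2.30 and 2.01 (SE 0.19, adjusted p = 0.0013 and 0.00181). The calls of NAI2, JAL33 and JAL34 held under quantile normalization and centring. JAL22 differed by 0.85 and 0.44 and did not pass (adjusted p = 0.052 and 0.242). JAL23 read 4.47, 5.89 and 5.73 in EBE-XVE replicates 1, 2 and 3 and 7.98, 6.31 and 6.47 in WT, so its 2 replicate 1 arrays were the lowest and the highest of all. Its EBE-XVE values lay wholly below those of WT, by -1.56 on average. Groups that do not overlap were found for 1.38% of all probe sets. The JAL23 difference did not pass in limma (adjusted p = 1.00, and unadjusted 0.0441, or 0.0507 with the replicate block).

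**Figure D4:**
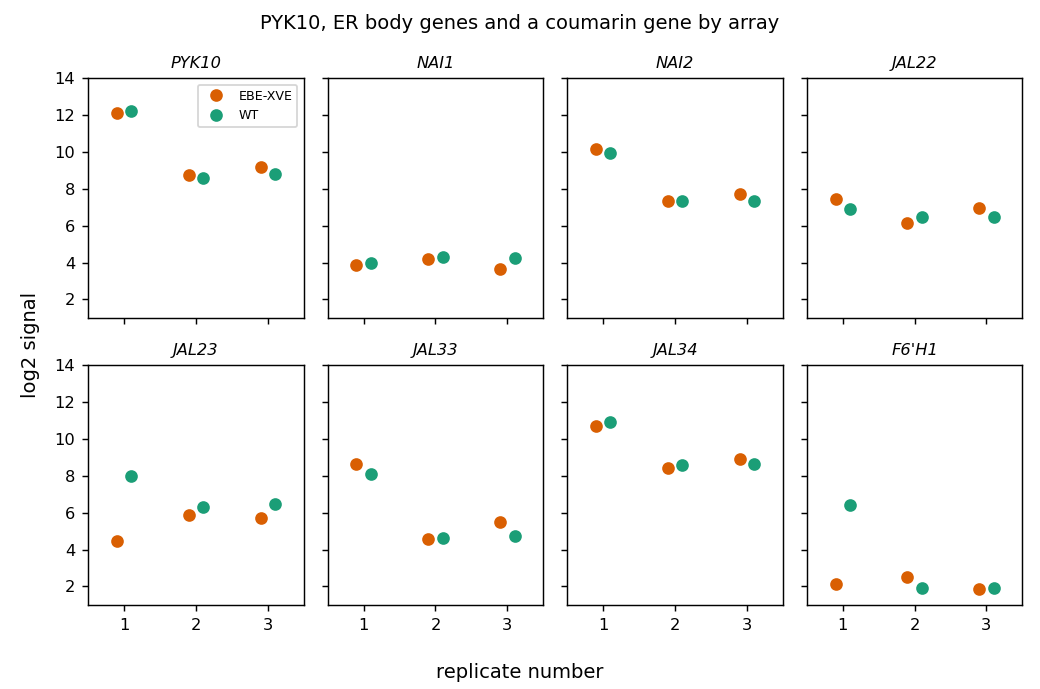
Log2 signal (vertical axis) of PYK10, 6 genes for ER bodies and their lectins, and the coumarin gene F6'H1 by replicate number (horizontal axis), with 1 point per array, EBE-XVE in orange and WT in green. NAI2, JAL33 and JAL34 are highest on both replicate 1 arrays as PYK10 is, NAI1 is not, and F6'H1 reads 6.42 on the WT replicate 1 array alone.

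Lists for possible substrates gave a mixed picture. Among 34 listed genes for glucosinolate synthesis and transport 5 were measured, with UGT74B1, BCAT4, AOP3 and GTR2 called higher and 0 lower in replicate 1 against each other replicate, or 80.0% of the list beside the same 37.9% and 37.0%. UGT74B1, which adds the glucose in glucosinolate synthesis, was 1.24 higher than in replicate 2 and 1.61 higher than in replicate 3 (adjusted p = 0.0144 and 0.00681). The transporter gene GTR2 was 1.12 and 1.48 higher (adjusted p = 0.0171 and 0.00756), and BCAT4, of methionine chain elongation, 0.64 and 0.68 (adjusted p = 0.0497 and 0.0428). GTR1, the other importer gene, differed by 0.16 and 0.65 and was not called. With centring BCAT4 turned to -0.33 and -0.27 and AOP3 to -0.33 and -0.28, and the call of GTR2 was lost at 0.16 and 0.53. UGT74B1 was not called against replicate 2 with quantile normalization (0.66) or centring (0.28).

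Coumarin and phenylpropanoid genes had 5 measured of 14 listed, with 1 called higher and 2 lower in each comparison. Over all probe sets the shares were 37.9% higher and 9.54% lower against replicate 2, and 37.0% and 9.98% against replicate 3. UGT72E1, which glucosylates lignin precursors, was the one called higher, by 1.54 and 1.74 (adjusted p = 0.00538 and 0.0038), and with centring its differences were 0.58, not called, and 0.79, called. The 2 called lower were the dim genes UGT72E3, at -0.10 in both comparisons, and F6'H2, at -0.11 in both. UGT72E2 differed by -0.31 and -0.45 and was not called. F6'H1 (AT3G13610), which makes the first step towards scopoletin, whose glucoside PYK10 can split, read 6.42 in WT replicate 1 and 1.87 to 2.52 on the other 5 arrays. The array on which it stood out was that on which BGLU27 did. The glucosinolate breakdown list and the list of other cell wall glycosidases had 0 genes matched by name to a probe set of 1 gene.

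Some shoot markers moved in replicate 1 as well. Of 8 measured, SBPASE, a Calvin cycle gene, and SPCH, which starts the stomatal lineage, were called higher than in replicate 2 by 0.72 and 1.23 (adjusted p = 0.0285 and 0.00413), and STOMAGEN, a mesophyll peptide gene that promotes stomata, lower by -1.05 (adjusted p = 0.0331). Against replicate 3 SPCH was higher by 1.28 and STOMAGEN lower by -1.58, while SBPASE at 0.52 was not called. Of all probe sets, 37.9% were called higher and 9.54% lower against replicate 2, and 37.0% and 9.98% against replicate 3. The share of shoot markers called higher was below that background in both comparisons. The share called lower, which was 1 gene each time, was slightly above it. With centring SBPASE turned to -0.25 against replicate 2, and SPCH at 0.26 was not called. FAMA, for guard cell fate, read 5.36 to 6.01 in EBE-XVE and 4.60 to 5.52 in WT, and PSAN, of photosystem I, 11.99 to 12.59 and 12.32 to 13.16. The part of these shifts in the glycosidase values was not tested.

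The comparison for which the series was made, EBE-XVE against WT, called 0 of the 22 members and 0% of all probe sets higher or lower in limma. Without adjustment, 0 members and 79 of all probe sets had p under 0.05. With the replicate number as a block there were again 0 calls, while 3 members and 462 of all probe sets had p under 0.05 without adjustment. In no member did the 3 EBE-XVE values lie wholly above or below the 3 WT values, which held for 1.38% of all probe sets. The members' median difference was -0.01, and -0.004 over all probe sets. EBE itself differed by 2.90 (SE 1.38) and was not called either. Its unadjusted limma p was 0.0812, or 0.0174 with the block. The 0 calls therefore cannot show that the members did not respond. On all 6 arrays, with or without the block, every genotype difference given below had an adjusted p of 1.00.

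BGLU25 was the member whose signal was above WT at every replicate number. Its signal averaged 7.02 ± 2.29 (SD, n = 3) with the transgene and 5.82 ± 1.39 (SD, n = 3) in Col-0. These means differed by 1.20 (SE 1.29, or 0.36 with the replicate block). Within pairs 1, 2 and 3 it differed by 2.24, 0.63 and 0.72. The array labelled EBE-XVE replicate 3, on which EBE was not raised, thus had about the same BGLU25 difference as the EBE-XVE replicate 2 array. On replicates 2 and 3 alone the difference was 0.68. Without EBE-XVE replicate 1, in a fit that left WT replicate 1 in, it was -0.12.

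In BGLU33, BGLU28 and BGLU44 the signal was below WT at every replicate number. BGLU33 differed by -0.78 (SE 0.40), with 7.38 ± 0.30 (SD, n = 3) with the transgene and 8.16 ± 0.69 (SD, n = 3) in Col-0, and by -1.64, -0.58 and -0.11 within pairs 1, 2 and 3. For BGLU28 the pairs gave -1.11, -0.19 and -0.69 and the mean -0.66 (SE 0.73). BGLU44 differed by -0.36, -0.26 and -0.04, with a mean of -0.22 (SE 0.39). Differences of 1 sign in all 3 pairs were found for 4 of the 22 members, 1 higher and 3 lower, beside 8.23% of all probe sets higher and 6.23% lower. The values without WT replicate 1 were -0.38 for BGLU33, 0.007 for BGLU28 and 0.12 for BGLU44, in fits that left EBE-XVE replicate 1 in.

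PYK10 and BGLU15 did not keep a sign across pairs. PYK10 differed by -0.11, 0.17 and 0.40 in pairs 1, 2 and 3, and BGLU15 by 0.85, 0.17 and -0.24. Their mean differences were 0.15 (SE 1.31, or 0.15 with the block) and 0.26 (SE 1.02, or 0.24). For PYK10 the genotypes thus differed by far less than replicate 1 did from replicates 2 and 3. Replicates 2 and 3 differed by -0.35, about as much as the genotypes did in pair 3. BGLU27 differed by -4.33 in pair 1 and by 0.02 and -0.10 in the other pairs, so its mean of -1.47 (SE 1.18) rested on WT replicate 1, without which it was -0.04. The same array held the differences of BGLU46, -1.57, 0.02 and -0.12, and of BGLU45, -0.65, 0.02 and -0.12. BGLU47 of the monolignol class and BGLU19, classed by its symbol as reproductive-type, differed by -0.05 and -0.004. BGLU36 differed by -0.002. Its other name, TGG6, was on the reproductive-type list, but its symbol was not, so it was not put in that class. BGLU42 and BGLU16 had mean differences of 0.09 and 0.005, and BGAL16 -0.01.

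The 3 pairs also differed in the sign that most members took, as all probe sets did. EBE-XVE was above WT for 14 members in pair 1, 16 in pair 2 and 3 in pair 3, or 63.6%, 72.7% and 13.6%. Over all probe sets these shares were 71.8%, 67.6% and 28.4%. The members above WT in pair 3 were PYK10, BGLU25 and BGLU16.

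**Figure D5:**
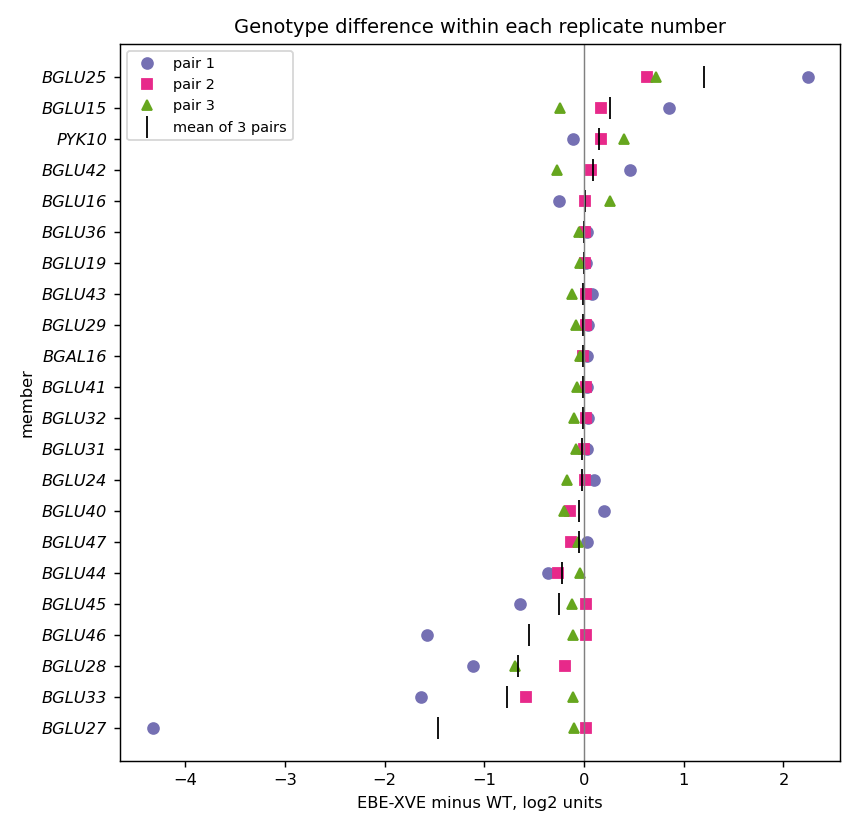
EBE-XVE minus WT in log2 units (horizontal axis) for each member (vertical axis) within replicate numbers 1 (circles), 2 (squares) and 3 (triangles), with bars at the mean of the 3. BGLU25 lies above 0 in all 3 pairs, BGLU33, BGLU28 and BGLU44 lie below 0 in all 3, and the wide differences of BGLU27 and BGLU46 belong to pair 1.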

How the data were processed

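Shoot RNA was measured on 6 ATH1 arrays. The authors deposited 1 log2 value for each probe set and array. GCRMA and RMA are named, with no version or role, per the submitters' processing notes. The log base was taken from the range of the values. Of 22810 probe sets, 64 manufacturer's controls were left out and 22746 tested. Gene names came from the platform annotation (13513 with 1 symbol, 503 with several, 8730 unnamed here), and loci and neighbouring genes through a reference table of assembly TAIR10.1, which matched all 22 members.

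Limma 3.58.1 in R 4.3.3 (lmFit, then eBayes with a trend) was fitted to all probe sets, with Benjamini-Hochberg adjustment, 2-sided, and an adjusted p under 0.05 as a call. EBE-XVE was compared with WT with group as the only term, and replicate numbers pairwise with genotype as a second term. The fit was tested on simulated data. Deviations from group means correlated at 0.79, 0.54 and 0.58 for same-numbered arrays 1, 2 and 3. The crossed pairs among numbers 2 and 3 correlated about as well, at 0.55 and 0.60. These correlations set replicate 1 apart but cannot tell how numbers 2 and 3 pair. Pairs were therefore taken from the numbers in the titles. No 2 arrays were identical. P-values between genotypes measure the spread between arrays of a genotype. With the block, and between replicate numbers, they rest on how the genotype difference varied over the replicate numbers. Each replicate number has 1 array per genotype. P-values between replicate numbers thus do not measure variation between independent samples of the same number. The number of arrays limits the precision.

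Members and lists were chosen with earlier results of these data known. Named were all members of the root-type, shoot-type, reproductive-type and monolignol classes, of the others those called (up to 6 per direction), the 5 smallest p per direction between genotypes and the 6 widest ranges, and up to 4 genes with the widest range per list. Genes named beyond it, chosen after their values were seen, were RCA, LHCB4.1, SBPASE, MUTE, NAI1, JAL22, AOP3, UGT72E3, ATA27 and the flat members. Alternatives were quantile normalization, median centring, other eBayes priors, array weights, a filter on dim probe sets, a replicate block, a stricter threshold, other namings and the omission of each array. Fits on replicates 2 and 3 alone were an addition made after seeing the data.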

Additional observations from a re-analysis of the deposited data

How the results depend on the processing

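The counts of members called between replicates moved with scaling. Higher than replicate 2 were 7 members after quantile normalization, 4 after median centring, 6 with dim probe sets left out and 7 at an adjusted p under 0.01, and lower were 7, 11, 0 and, with array weights, 2. Against replicate 3, centring gave 5 higher, and lower were 7 after quantile normalization, 11 after centring, 1 with array weights, 1 with dim probe sets left out and 0 at the stricter threshold. Leaving out 1 array gave 7 to 12 higher and 0 to 1 lower against replicate 2, 5 to 12 and 0 to 2 against replicate 3, and 0 to 1 higher for replicate 2 against 3. Array weights called 15 probe sets higher and 24 lower between genotypes, and replicates 2 and 3 alone called 3 lower, with 0 members in each. The replicate block, which was run between genotypes only, gave 0 calls as the fit without it did. Over all settings, probe sets called higher than replicate 2 ran from 1824 to 10987 and lower from 471 to 12611; against replicate 3 they ran from 2104 to 9204 and from 608 to 13019, and higher or lower in replicate 2 than 3, up to 381 and 263. Quantile normalization turned BGLU16 against replicate 2 (-0.037), and BGLU33 (-0.25) and BGLU42 (-0.034) against replicate 3. Centring, which lowers all replicate 1 values, turned BGLU19 (-0.63 and -0.60), BGLU33 (-0.25 and -0.57), BGLU42 (-0.22 and -0.33) and BGLU31 (-0.64 and -0.61) against replicates 2 and 3, BGLU16 (-0.33) against 2 and BGLU44 (-0.070) against 3, and between genotypes BGLU19 (0.024) and BGAL16 (0.020). Genotype differences also turned for BGLU19 with array weights (0.006) and for BGLU15 (-0.033) and BGLU42 (-0.10) on replicates 2 and 3 alone. Without 1 array, in fits with no block, in which the other replicate 1 array keeps its shift, genotype differences ran from -0.51 to 0.21 for BGLU45, -0.98 to 0.27 for BGLU46, -0.74 to 0.96 for BGLU15, -0.90 to 1.34 for PYK10, -0.12 to 0.11 for BGLU19, -0.25 to 0.10 for BGLU47, -0.12 to 2.00 for BGLU25, -0.24 to 0.26 for BGLU42, -0.13 to 0.26 for BGLU16, -1.11 to 0.0067 for BGLU28, -0.49 to 0.12 for BGLU44 and -0.028 to 0.011 for BGAL16, and BGLU33 against replicate 3 from -0.27 to 1.02. Of the alternative values for single members, 444 kept direction and call, 49 lost the call, 9 gained it and 43 turned. The cause was not tested.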
